A study of Mus musculus with 10 samples.

Results

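The interferon-gamma receptor and JAK-STAT signaling genes are a set of 9 named genes: the ligand gene Ifng, the receptor chains Ifngr1 and Ifngr2, the kinases Jak1 and Jak2, the transcription factor gene Stat2, and the inhibitors Socs1, Socs3 and Ptpn2. They were chosen by symbol, and all 9 were found among the 29890 genes listed and passed the filter on low values, which kept the 15276 genes averaging 1 TPM or more. TPM is a transcript abundance per transcript length, scaled within each library. RNA came from 10 subcutaneous tumors. Each was grown from 3000000 cells of B2905-M4, a melanoma line of the mouse, in female C57BL/6J mice aged 7 to 8 weeks. In the Adamts7 group, 5 tumors carried over-expressed Adamts7, which encodes a secreted metalloproteinase of the extracellular matrix. In the vector (Vec) group, 5 tumors carried the vector over-expressed in its place. No tumor of either group had received immunotherapy. Of the Adamts7 tumors, 2 were harvested on day 35 and 3 on day 45, and of the vector tumors, 3 on day 45 and 2 on day 50. The labels do not say which tumor belongs to which day, and tumors carrying Adamts7 grew faster. The promoter of the vector, and whether the transduced cells were 1 clone, are not given in the sources used here.

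Interferon-gamma is a cytokine made mainly by T cells and natural killer cells. It binds a receptor in which IFNGR1 is the main ligand-binding chain, associated with the kinase JAK1, and IFNGR2 brings in the kinase JAK2. The activated kinases phosphorylate a STAT transcription factor, which binds gamma-activated sites (GAS) in the promoters of target genes. STAT2 acts chiefly downstream of type I interferon, where it joins IRF9 in a complex that binds the interferon-stimulated response element (ISRE). SOCS1 and SOCS3 are induced by cytokines and dampen kinase signaling, SOCS1 in interferon pathways and SOCS3 most of all in those of gp130 receptors. PTPN2 is a phosphatase that removes phosphate from JAK and STAT proteins. In melanoma this pathway is known for making tumor cells visible to T cells, and its loss for resistance to them.

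Promoter sequences are shown for the genes of the set that hold a match to either element in the 250 bases before the transcription start. RefSeq promoter sequences of build GRCm38.p6 were matched by symbol for 8 of the 9 genes, without Ptpn2. The GAS was searched as TTCNNNGAA, which is its own reverse complement, and the ISRE core as GAAA, any 2 bases and GAAA, with its reverse complement TTTC, any 2 bases and TTTC. Of 32851 promoters of this length, 7.02% hold the GAS letters and 2.98% the ISRE core letters. The matches, in capitals, are GAS letters in Ifng (chr10:118440796-118441045, plus strand) and Socs3 (chr11:117969367-117969616, minus strand), and ISRE core letters in Stat2 (chr10:128270248-128270497, plus strand) and Socs1 (chr16:10785537-10785786, minus strand). Each is written 5′ to 3′ and ends at the base before the start.
Ifng: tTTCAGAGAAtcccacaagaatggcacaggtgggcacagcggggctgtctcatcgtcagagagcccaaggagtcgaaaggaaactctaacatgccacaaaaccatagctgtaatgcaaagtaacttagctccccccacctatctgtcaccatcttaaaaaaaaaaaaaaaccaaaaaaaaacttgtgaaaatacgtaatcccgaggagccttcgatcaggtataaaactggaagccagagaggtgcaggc
Socs3: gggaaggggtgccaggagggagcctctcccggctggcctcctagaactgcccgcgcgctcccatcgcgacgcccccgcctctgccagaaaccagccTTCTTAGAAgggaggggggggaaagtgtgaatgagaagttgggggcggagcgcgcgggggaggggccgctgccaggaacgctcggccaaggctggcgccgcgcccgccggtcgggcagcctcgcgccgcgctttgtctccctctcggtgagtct
Stat2: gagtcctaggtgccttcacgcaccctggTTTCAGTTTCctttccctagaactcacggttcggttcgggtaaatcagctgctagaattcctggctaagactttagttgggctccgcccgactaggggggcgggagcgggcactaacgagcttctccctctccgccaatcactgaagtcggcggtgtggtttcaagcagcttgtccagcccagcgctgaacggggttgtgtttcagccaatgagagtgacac
Socs1: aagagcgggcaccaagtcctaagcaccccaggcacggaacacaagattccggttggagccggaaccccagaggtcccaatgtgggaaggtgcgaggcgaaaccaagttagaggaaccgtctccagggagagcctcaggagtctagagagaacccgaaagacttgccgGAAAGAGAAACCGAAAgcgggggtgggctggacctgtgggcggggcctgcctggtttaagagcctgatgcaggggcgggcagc
In Socs1 the capitals are 2 overlapping matches, GAAAGAGAAA from 83 to 74 bases and GAAACCGAAA from 77 to 68 bases before the start. The Stat2 match, TTTCAGTTTC, lies from 222 to 213 bases before the start, the Socs3 match, TTCTTAGAA, from 154 to 146, and the Ifng match, TTCAGAGAA, from 249 to 241. The windows of Ifngr1, Ifngr2, Jak1 and Jak2 hold neither set of letters. A match describes letters and not a bound site, and no binding was measured.

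Some libraries stood apart. Adamts7 itself lay between 74.8 and 96.0 TPM in Adamts7 tumors 1 to 4, against 6.49 to 28.3 TPM in the vector tumors. The tumor labelled Adamts7 5 had 18.2 TPM, less than vector tumors 3 and 5. Vector tumors 3 and 5 had 313 and 1994 TPM in the sum of 11 melanocyte markers, against at least 8653 TPM in every other tumor. These 2 tumors had 578 and 457 TPM in the sum of 14 T cell markers, against 28.3 to 65.3 TPM in the Adamts7 tumors and 66.2 to 93.3 TPM in the other vector tumors. Since TPM carries no depth, the number of reads behind each tumor is unknown. In bulk tumors, fewer cells of a type and less RNA per cell cannot be told apart. Nothing in the labels says that tumors came from separately made cell populations, so p-values measure the spread between these tumors only.

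Of the 9 genes, 8 had a lower mean in the Adamts7 tumors, and the means of Jak1 were 59.8 and 59.1 TPM. On the log2 scale Ifng and Socs1 had the largest differences of these 9, and Ifngr2 the smallest of the 8. None of the 9 passed the test over all genes (limma, adjusted p from 0.135 to 0.924), where 0.223% of the 15276 genes did. At an unadjusted limma p under 0.05 there were 5, Ifng, Socs1, Ptpn2, Jak2 and Stat2, all lower in the Adamts7 tumors, where 15.3% of all tested genes were lower at that level. The median log2 fold change, Adamts7 over Vec, of the 9 genes was -0.51, and that of all tested genes -0.10. Of the 9, 2 genes, Ifng and Socs1, have in the authors' deposited table an adjusted p under 0.05, both lower in the Adamts7 tumors. Of all genes with an adjusted p in that table, 7.96% pass, and 5.48% pass and are lower.

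**Figure D1:**
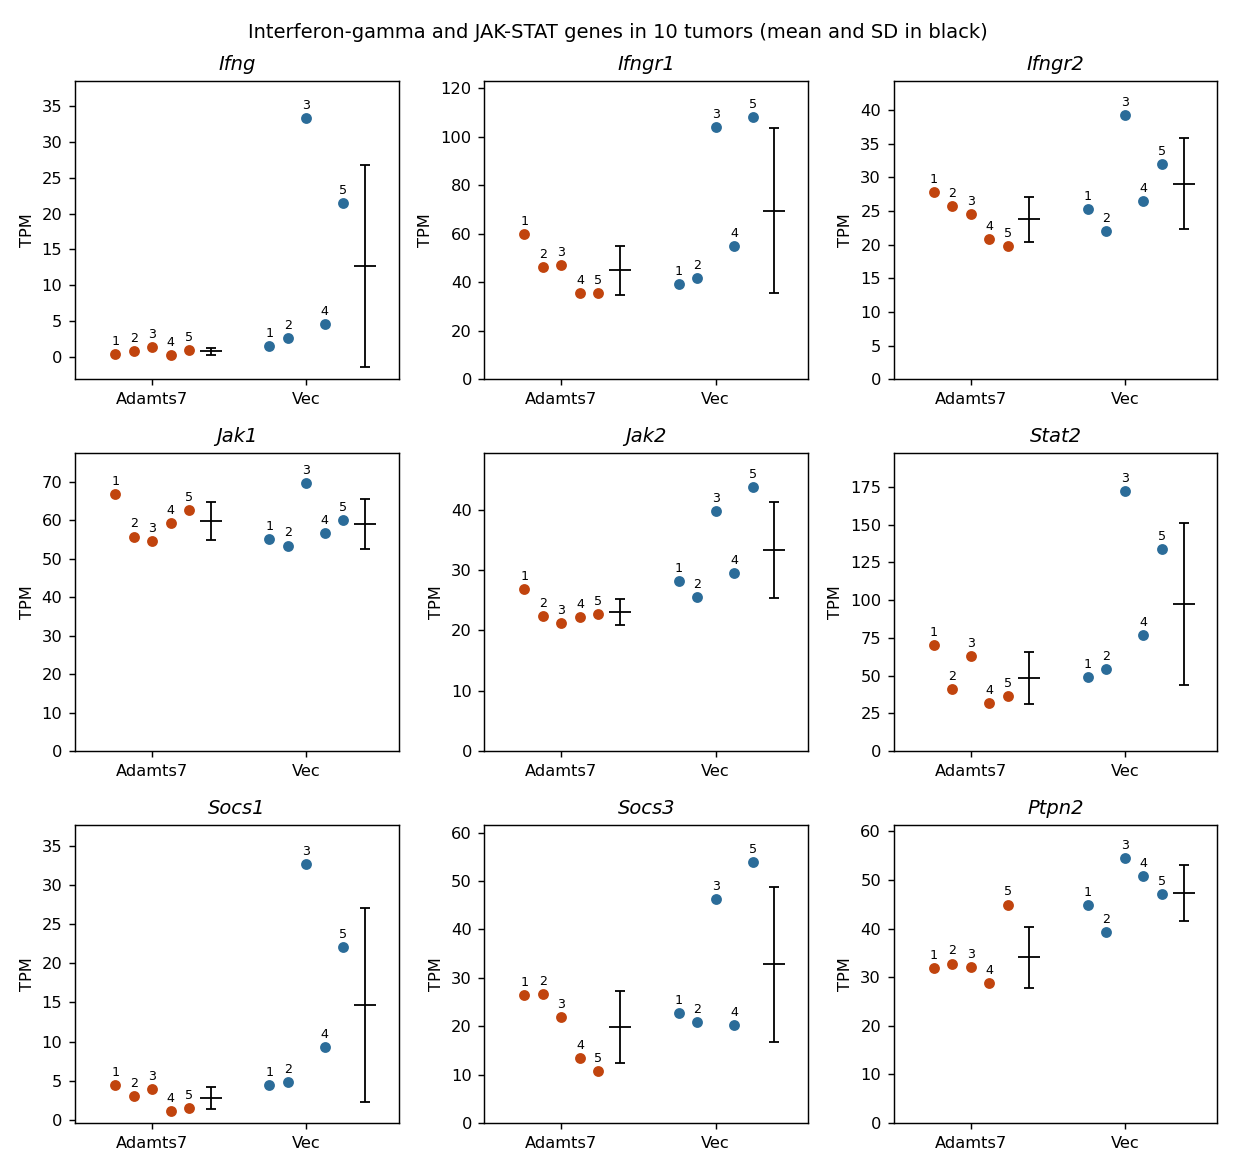
TPM of each of the 9 genes (vertical axes, linear) in the 5 Adamts7 tumors (left, orange) and the 5 vector tumors (right, blue), with tumor numbers above the points and the mean and SD in black. Vector tumors 3 and 5 are the highest of all 10 for 7 of the 9 genes, and only Ifng separates the groups without overlap.

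Ifng, the ligand, was low in every Adamts7 tumor. It had 0.41, 0.75, 1.34, 0.19 and 0.96 TPM in Adamts7 tumors 1 to 5, against 1.5, 2.52, 33.3, 4.52 and 21.5 TPM in vector tumors 1 to 5. The groups did not overlap, but Adamts7 tumor 3 and vector tumor 1 lay close together, and vector tumors 3 and 5 were far above the rest. Such a separation in the lower direction was found in 3.78% of all tested genes, and without vector tumors 3 and 5 in 7.31%. The mean was 0.730 ± 0.453 TPM in Adamts7 tumors and 12.7 ± 14.1 TPM in vector tumors (SD, n = 5 each), 17.4 times higher in the vector tumors. Its log2 fold change, on log2(TPM + 1) values that shrink the changes of weakly expressed genes, was -2.29 with a 95% interval from -3.78 to -0.80 (limma, adjusted p = 0.135). The authors' deposited table gives Ifng a log2 fold change of -3.98 with a standard error of 0.80 and an adjusted p of 0.000122. Without vector tumors 3 and 5 the log2 fold change of Ifng was -1.12 (95% interval -1.87 to -0.37).

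The receptor chains showed smaller differences than the ligand. Ifngr1, the ligand-binding chain, had 59.9, 46.3, 47.3, 35.7 and 35.6 TPM in Adamts7 tumors 1 to 5, against 39.2, 41.7, 104, 55.0 and 108 TPM in vector tumors 1 to 5. Ifngr2, the signal-transducing chain, had 27.8, 25.7, 24.6, 20.8 and 19.7 TPM in Adamts7 tumors 1 to 5, against 25.3, 22.0, 39.3, 26.5 and 31.9 TPM in vector tumors 1 to 5. For both chains vector tumors 3 and 5 exceeded every Adamts7 tumor, and the other 3 vector tumors lay among the Adamts7 tumors. Their log2 fold changes were -0.51 (95% interval -1.18 to 0.16) for Ifngr1 and -0.26 (95% interval -0.63 to 0.10) for Ifngr2, with limma adjusted p-values of 0.348 and 0.376. With vector tumors 3 and 5 left out these values were -0.02 (95% interval -0.46 to 0.41) and -0.06 (95% interval -0.38 to 0.27). Ifngr1 was the more abundant chain per transcript length in every tumor, by 1.71 to 2.16 times in Adamts7 tumors and 1.55 to 3.39 times in vector tumors.

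The kinases parted. Jak1, the kinase of the ligand-binding chain, had 66.9, 55.8, 54.6, 59.3 and 62.6 TPM in Adamts7 tumors 1 to 5, against 55.3, 53.5, 69.7, 56.7 and 60.2 TPM in vector tumors 1 to 5. The groups interleaved, with a log2 fold change of 0.02 and a 95% interval from -0.21 to 0.26 (limma, adjusted p = 0.924). Jak2, the kinase of the other chain, had 26.9, 22.4, 21.2, 22.2 and 22.7 TPM in Adamts7 tumors 1 to 5, against 28.1, 25.5, 39.8, 29.5 and 43.8 TPM in vector tumors 1 to 5. Here 4 of 5 vector tumors exceeded every Adamts7 tumor, and vector tumor 2 lay below Adamts7 tumor 1. The mean of Jak2 was 23.1 ± 2.19 TPM in Adamts7 tumors and 33.3 ± 7.95 TPM in vector tumors (SD, n = 5 each), with a log2 fold change of -0.49 (95% interval -0.84 to -0.14). That difference did not pass over all genes (limma, adjusted p = 0.155). The log2 fold change of Jak2 without vector tumors 3 and 5 was -0.26 (95% interval -0.52 to 0.01).

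Stat2, the STAT of the type I interferon complex, was lower on average in the Adamts7 tumors with wide overlap. It had 70.5, 41.0, 63.1, 31.9 and 36.5 TPM in Adamts7 tumors 1 to 5, against 49.2, 54.1, 173, 76.9 and 134 TPM in vector tumors 1 to 5. Vector tumors 1 and 2 lay below Adamts7 tumors 1 and 3. The log2 fold change was -0.88 with a 95% interval from -1.69 to -0.07 (limma, adjusted p = 0.221), and -0.34 (95% interval -0.96 to 0.28) without vector tumors 3 and 5. In the authors' deposited table its adjusted p is 0.116.

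Among the inhibitors, Socs1 showed the largest difference. It had 4.47, 3.00, 3.92, 1.19 and 1.51 TPM in Adamts7 tumors 1 to 5, against 4.47, 4.79, 32.7, 9.37 and 22.2 TPM in vector tumors 1 to 5. The groups touched at a single value, 4.47 TPM, shared by Adamts7 tumor 1 and vector tumor 1. The mean of Socs1 was 2.82 ± 1.44 TPM in Adamts7 tumors and 14.7 ± 12.4 TPM in vector tumors (SD, n = 5 each), with a log2 fold change of -1.75 (95% interval -2.90 to -0.60; limma, adjusted p = 0.135). The authors' deposited table gives Socs1 a log2 fold change of -2.27 with a standard error of 0.56 and an adjusted p of 0.00285. The log2 fold change of Socs1 without vector tumors 3 and 5 was -0.94 (95% interval -1.77 to -0.12).

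Socs3 did not follow the group labels closely. As for Socs1, vector tumors 3 and 5 were its highest and Adamts7 tumors 4 and 5 its lowest. It had 26.4, 26.6, 21.9, 13.3 and 10.8 TPM in Adamts7 tumors 1 to 5, against 22.8, 20.9, 46.2, 20.2 and 53.9 TPM in vector tumors 1 to 5. Adamts7 tumors 1 and 2 lay above vector tumors 1, 2 and 4, while Adamts7 tumors 4 and 5 were the lowest of all 10. Its log2 fold change was -0.66 (95% interval -1.42 to 0.11; limma, adjusted p = 0.303), and -0.18 (95% interval -0.84 to 0.48) without vector tumors 3 and 5.

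Ptpn2, the phosphatase, depended least on vector tumors 3 and 5 among the 8 lower genes. It had 31.8, 32.8, 32.0, 28.9 and 45.0 TPM in Adamts7 tumors 1 to 5, against 44.8, 39.4, 54.5, 50.7 and 47.2 TPM in vector tumors 1 to 5. The groups were apart except for the tumor labelled Adamts7 5, which lay above vector tumors 1 and 2. The mean of Ptpn2 was 34.1 ± 6.26 TPM in Adamts7 tumors and 47.3 ± 5.76 TPM in vector tumors (SD, n = 5 each). Its log2 fold change was -0.47 (95% interval -0.78 to -0.16; limma, adjusted p = 0.135), and -0.40 (95% interval -0.75 to -0.04) without vector tumors 3 and 5. Without the tumor labelled Adamts7 5 it was -0.57 and passed over all genes (limma, adjusted p = 0.0289), in a fit that called 657 genes. The authors' deposited table, with all tumors, gives Ptpn2 an adjusted p of 0.210.

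**Figure D2:**
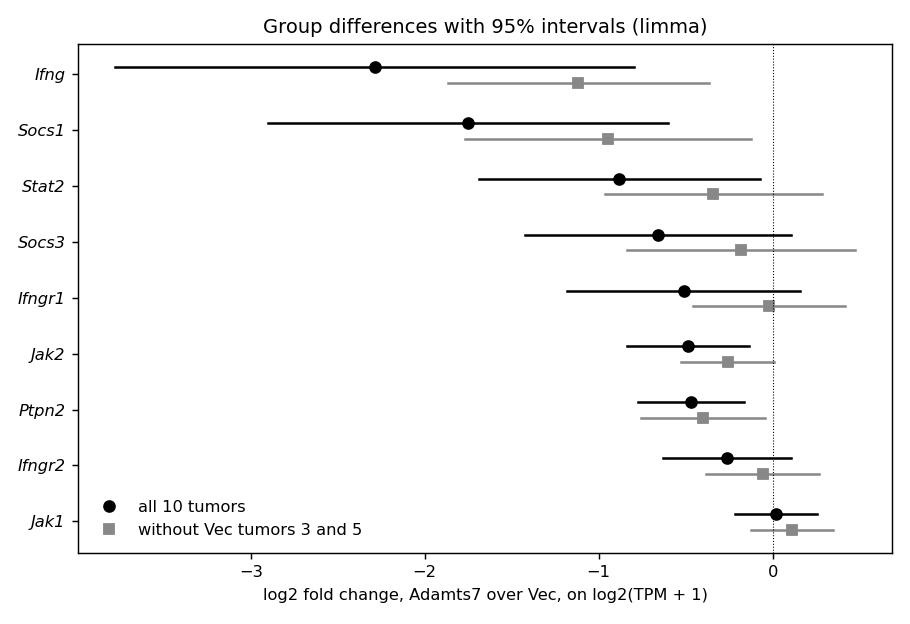
Log2 fold change, Adamts7 over Vec, of each gene on the log2(TPM + 1) scale with its 95% limma interval, for all 10 tumors (black circles) and without vector tumors 3 and 5 (grey squares). Every point but that of Jak1 lies below 0 in both fits, and all 8 lie nearer to 0 with the 2 tumors left out, Ptpn2 by the least (-0.40 beside -0.47).

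The order of the levels, in TPM and so per transcript length, was similar in the groups. In Adamts7 tumors Jak1 was highest with 59.8 ± 5.04 TPM, followed by Stat2 with 48.6 ± 17.1, Ifngr1 with 45.0 ± 10.1 and Ptpn2 with 34.1 ± 6.26 TPM (SD, n = 5). Ifngr2, Jak2 and Socs3 came next at 23.7 ± 3.37, 23.1 ± 2.19 and 19.8 ± 7.38 TPM. The spreads of these neighbours between tumors overlapped, as did those of Stat2 and Ifngr1. Whether such neighbours differ within tumors was not tested. Socs1 and Ifng were lowest in both groups. In vector tumors Stat2 averaged 97.3 ± 53.8 TPM and Ifngr1 69.6 ± 33.9 TPM, above the 59.1 ± 6.43 TPM of Jak1 but within their own SD of it (n = 5). The spread between tumors was smallest for Jak1, with an SD of 8.43% of the mean in Adamts7 tumors and 10.9% in vector tumors. It was largest for Ifng, with 62.0% in Adamts7 tumors and 111% in vector tumors.

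**Figure D3:**
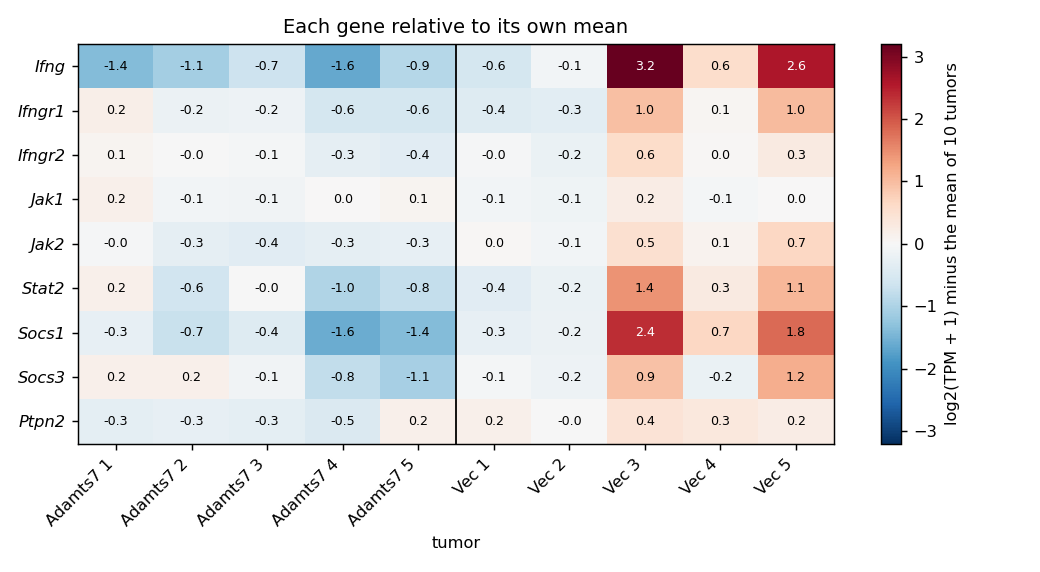
Log2(TPM + 1) of each gene (rows) minus its own mean over the 10 tumors, for the Adamts7 tumors left of the line and the vector tumors right of it; red is above the gene's mean and blue below. Vector tumors 3 and 5 are red in nearly every row, Adamts7 tumors 4 and 5 are the 2 lowest in 5 of 9 rows, and the Jak1 row is almost colourless.

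Whether genes of the same step moved unequally was asked within each tumor, where library scaling largely cancels. The difference of log2(TPM + 1) was taken between 2 genes of the same tumor and set between the groups by a permutation test, exact and two-sided, with 252 arrangements and adjustment over 4 such differences. For Jak2 minus Jak1 the mean difference was -1.34 ± 0.06 in Adamts7 tumors and -0.83 ± 0.23 in vector tumors (SD, n = 5 each; exact permutation p = 0.00794, the smallest the arrangements allow, adjusted p = 0.0159). All 5 Adamts7 tumors lay below all 5 vector tumors, so that Jak2 was lower relative to Jak1 by 0.51 on the log2 scale. How often other pairs of genes separate the groups was not counted. Single genes did so in the lower direction in 3.78% of all tested genes, and in 7.31% without vector tumors 3 and 5. The adjustment covers the 4 chosen differences only, unlike the test over all genes. Per transcript length, Jak1 exceeded Jak2 by 2.49 to 2.76 times in Adamts7 tumors and by 1.38 to 2.09 times in vector tumors. Without vector tumors 3 and 5 the difference was -0.37 (exact permutation test, adjusted p = 0.0357). That the groups did not overlap there was fixed in advance, since they were apart with all tumors, and it adds nothing. The difference passed with each single tumor left out as well, with values from -0.56 to -0.41, where the groups were likewise bound to stay apart.

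For Socs1 minus Socs3 the mean difference was -2.45 ± 0.27 in Adamts7 tumors and -1.36 ± 0.67 in vector tumors (SD, n = 5 each; exact permutation p = 0.00794, adjusted p = 0.0159). Again the groups did not overlap, although Adamts7 tumor 3 at -2.22 and vector tumor 1 at -2.12 were close. Here, too, the share of other pairs that separate the groups was not counted. Per transcript length, Socs3 exceeded Socs1 by 5.57 to 11.2 times in Adamts7 tumors and by 1.41 to 5.10 times in vector tumors. This difference no longer passed without Adamts7 tumor 2 or without Adamts7 tumor 4 (adjusted p = 0.0794 and 0.0635), at -1.01 and -1.03 against -1.09 with all tumors. It was -0.76 without vector tumors 3 and 5 (exact permutation test, adjusted p = 0.0357), where the groups were again bound to stay apart.

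For Ifngr2 minus Ifngr1 the mean difference was -0.88 ± 0.13 in Adamts7 tumors and -1.13 ± 0.44 in vector tumors (SD, n = 5 each; exact permutation p = 0.286, adjusted p = 0.286). The groups overlapped, with vector tumors 3 and 5 lowest and vector tumor 1 highest. The value was 0.25 with all tumors and -0.04 without vector tumors 3 and 5. An unequal change of the receptor chains was therefore not detectable in these tumors.

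**Figure D4:**
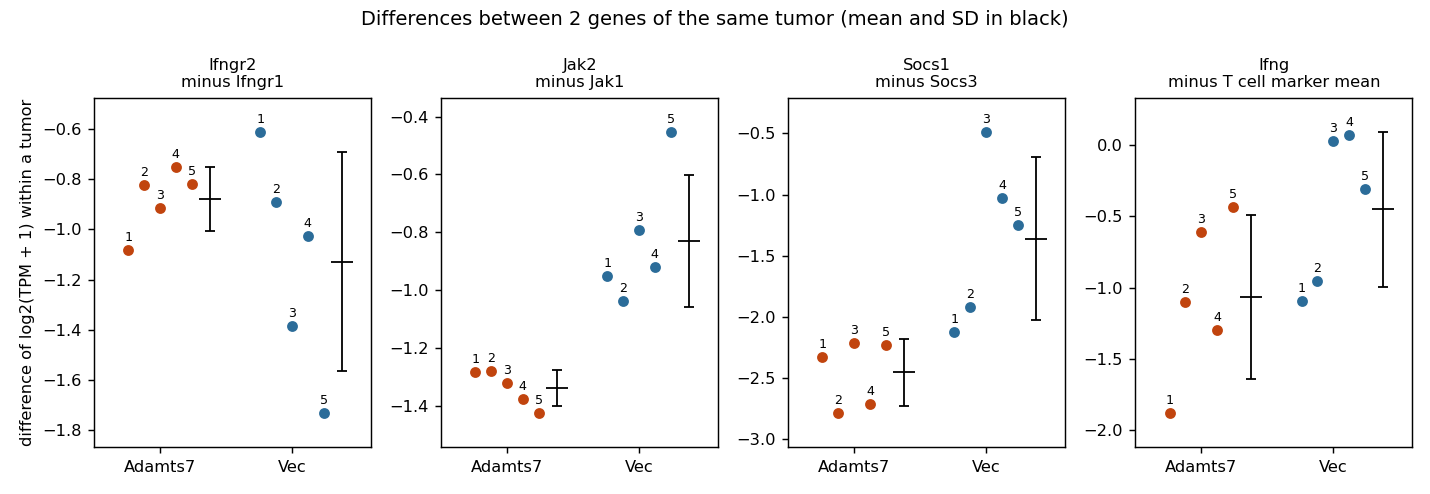
Difference of log2(TPM + 1) between 2 genes of the same tumor, or between Ifng and the mean of 14 T cell markers (vertical axes, each panel on its own scale), in Adamts7 tumors (left) and vector tumors (right), with the mean and SD in black. The groups are apart for Jak2 minus Jak1 and for Socs1 minus Socs3, and they overlap in the other 2 panels.

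The ligand was set beside markers of the cells that make it. Log2 fold changes were negative for all 14 T cell markers, with a median of -1.67 beside -0.10 for all tested genes, and for all 8 natural killer cell markers, with a median of -1.53. None of them passed over all genes (limma), and all had an unadjusted p under 0.05, where 20.2% of all tested genes did. As lower, 13 of the 14 and all 8 pass in the authors' deposited table, where 5.48% of all genes with an adjusted p do. Cd3e, a T cell receptor complex subunit, was at 3.23 ± 1.48 TPM in Adamts7 tumors and 18.9 ± 16.6 TPM in vector tumors (SD, n = 5 each). The summed TPM of the natural killer markers ran from 2.93 to 24.2 in Adamts7 tumors and from 16.5 to 227 in vector tumors, and no marker of either list was at 0 TPM in any tumor. Distinct T cell receptor beta chain clonotypes in the deposited repertoire numbered 5, 9, 9, 5 and 9 in Adamts7 tumors 1 to 5, against 17, 23, 87, 19 and 94 in vector tumors 1 to 5. The tumors with the most Ifng, vector tumors 3 and 5, thus had the most clonotypes.

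Ifng minus the mean of the T cell markers was -1.07 ± 0.58 in Adamts7 tumors and -0.45 ± 0.55 in vector tumors (SD, n = 5 each; exact permutation p = 0.119, adjusted p = 0.159). The groups overlapped, and a difference of Ifng beyond that of the T cell markers was not detectable in these tumors. Adamts7 tumor 1 had a T cell marker mean of 2.38 log2(TPM + 1), about that of vector tumors 1 and 4 at 2.42 and 2.40, yet 0.41 TPM of Ifng against 1.5 and 4.52 TPM there. Whether the number of lymphocytes sets the Ifng level was not tested.

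**Figure D5:**
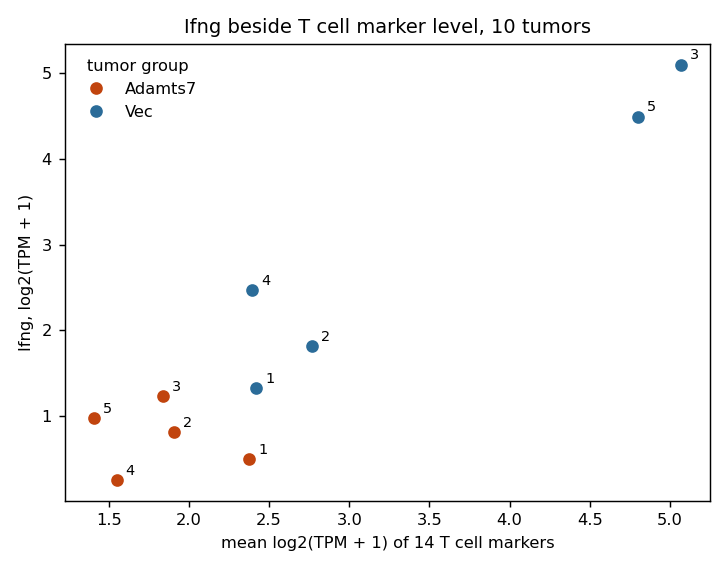
Log2(TPM + 1) of Ifng (vertical axis) against the mean log2(TPM + 1) of 14 T cell markers (horizontal axis) in Adamts7 tumors (orange) and vector tumors (blue), with tumor numbers. Vector tumors 3 and 5 stand alone at the upper right, and Adamts7 tumor 1 lies below vector tumors 1 and 4 at nearly the same marker level.

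Other genes of the pathway were read from the same fit, in lists that share some of the 9 genes. Of 12 JAK and STAT family genes with Irf9, 0 passed over all genes in either direction (limma). Their median log2 fold change was -0.23, and 6 had an unadjusted p under 0.05, where 20.2% of all tested genes did. In each direction 2 pass in the authors' deposited table. Of all genes with an adjusted p there, 7.96% pass in either direction and 5.48% as lower. Irf9, the DNA-binding partner of STAT2, was at 33.4 ± 6.99 TPM in Adamts7 tumors and 55.2 ± 16.5 TPM in vector tumors, with a log2 fold change of -0.69 (SE 0.22; limma, adjusted p = 0.147). Stat6, which serves interleukin-4 and interleukin-13, lay on the other side, at 149 ± 23.5 TPM in Adamts7 tumors and 106 ± 21.2 TPM in vector tumors (SD, n = 5 each; log2 fold change 0.49, SE 0.17; limma, adjusted p = 0.171). The STAT genes therefore did not share a direction.

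Of 18 negative regulators, 0 passed (limma), 7 had an unadjusted p under 0.05, where 20.2% of all tested genes did, and the median log2 fold change was -0.19. In each direction 1 passes in the authors' deposited table, where 7.96% of all genes with an adjusted p do. Socs2, an inhibitor best known from growth hormone signaling, was at 11.9 ± 3.35 TPM in Adamts7 tumors and 20.6 ± 6.85 TPM in vector tumors, with a log2 fold change of -0.72 (SE 0.25; limma, adjusted p = 0.174). The protein inhibitors of activated STAT were on both sides. Pias3 was at 24.3 ± 6.34 TPM in Adamts7 tumors and 37.9 ± 6.49 TPM in vector tumors, and Pias4 at 29.7 ± 4.82 TPM in Adamts7 tumors and 21.5 ± 2.98 TPM in vector tumors (SD, n = 5 each), with limma adjusted p-values of 0.135 and 0.159.

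The chains of the type I interferon receptor differed more evenly than those of the interferon-gamma receptor. Ifnar1 had 48.0, 41.5, 38.3, 41.0 and 44.2 TPM in Adamts7 tumors 1 to 5, against 58.5, 50.1, 55.3, 56.3 and 57.7 TPM in vector tumors 1 to 5. The groups did not overlap, as in 3.78% of all tested genes in the lower direction, and vector tumors 3 and 5 did not stand out. The log2 fold change of Ifnar1 was -0.38 (SE 0.10, limma adjusted p = 0.109). Ifnar2 was at 69.9 ± 8.72 TPM in Adamts7 tumors and 106 ± 22.0 TPM in vector tumors (log2 fold change -0.58, SE 0.15; limma, adjusted p = 0.113). Ifnlr1, the type III interferon receptor chain, was at 3.36 ± 1.23 TPM in Adamts7 tumors and 2.86 ± 0.787 TPM in vector tumors (SD, n = 5 each), a log2 fold change of 0.14 that turned to -0.01 with tumor weights. Of the 4 chains listed, with Il10rb, 0 passed (limma), and the median log2 fold change was -0.22. Ifnar1 and Ifnar2 had an unadjusted limma p under 0.05, where 20.2% of all tested genes did. Of the 4 chains 0 pass in the authors' deposited table, where 7.96% of all genes with an adjusted p do. Whether the chains of these receptors differ from Ifngr1 and Ifngr2 in their change was not tested.

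Listed inducers of Ifng and lymphocyte regulators were lower on average throughout. Log2 fold changes were negative for all 13 tested of 15 listed inducers and lymphocyte regulators, with a median of -1.06. None passed over all genes (limma), where 0.223% of all tested genes did. Of the 13, 6 had an unadjusted limma p under 0.05, where 15.3% of all tested genes were lower at that level. As lower, 6 pass in the authors' deposited table, where 5.48% of all genes with an adjusted p do. Il2rb, a chain of the interleukin-2 and interleukin-15 receptors, was at 3.55 ± 1.15 TPM in Adamts7 tumors and 20.0 ± 16.4 TPM in vector tumors (SD, n = 5 each; limma, adjusted p = 0.109). Il18r1, an interleukin-18 receptor chain, was at 0.474 ± 0.336 TPM in Adamts7 tumors and 5.11 ± 5.02 TPM in vector tumors (SD, n = 5 each; limma, adjusted p = 0.139). In both genes the groups did not overlap, as in 3.78% of all tested genes in the lower direction. Il12rb1, a chain of the interleukin-12 receptor, had another order, at 15.2, 20.0, 21.4, 14.1 and 11.6 TPM in Adamts7 tumors 1 to 5, against 53.0, 38.03, 16.9, 59.6 and 19.3 TPM in vector tumors 1 to 5. Vector tumors 3 and 5 were the lowest of their group there, and without them the log2 fold change of Il12rb1 was -1.56 (limma, adjusted p = 0.0372) against -1.0 with all tumors (limma, adjusted p = 0.173). The T cell markers, in contrast, were highest in vector tumors 3 and 5. Which cells carried Il12rb1 was not tested.

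Cytokines and receptors of the gp130 and interleukin-10 kind, which act through JAK and STAT proteins, had 9 tested of 13 listed genes, of which 8 had a negative log2 fold change, and the median was -0.82. None passed over all genes (limma), and 2 pass in the authors' deposited table, where 7.96% of all genes with an adjusted p do. At an unadjusted limma p under 0.05 there were 2, Osmr and Lifr. A count of 2 of 9 is near the 20.2% of all tested genes at that level, so it is no result about this list. Without vector tumors 3 and 5 the median was -0.19 over the 8 genes still tested, of which 6 were negative. Osmr, the oncostatin M receptor chain, was at 3.82 ± 1.70 TPM in Adamts7 tumors and 8.21 ± 1.41 TPM in vector tumors, and Lifr, the leukemia inhibitory factor receptor, at 12.8 ± 5.77 TPM in Adamts7 tumors and 29.8 ± 10.1 TPM in vector tumors (SD, n = 5 each; limma, adjusted p = 0.105 and 0.130). In both receptors the groups did not overlap, as in 3.78% of all tested genes in the lower direction. Csf3r, the granulocyte colony-stimulating factor receptor, was at 1.64 ± 0.953 TPM in Adamts7 tumors and 7.16 ± 7.06 TPM in vector tumors (SD, n = 5 each), with overlap.

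Targets of interferon-gamma were lower more uniformly than the genes of the signaling chain itself, by counts that were not tested against each other. The log2 fold changes of all 16 listed targets were negative, with a median of -1.75, all 16 had an unadjusted limma p under 0.05, where 15.3% of all tested genes were lower at that level. In 13 of them the groups did not overlap, against 1 of the 9 signaling genes and 3.78% of all tested genes. Over all genes 2 fell, Gbp4 and Irgm1, with limma adjusted p-values of 0.0464 and 0.0481. Both calls were lost in 12 of 20 alternative fits, median-of-ratios scaling, quantile normalization, no filter and the replicate block among them, with adjusted p-values up to 0.156 for Gbp4 and 0.160 for Irgm1. Of the 10 fits without a single tumor, 7 lost both, those without Adamts7 tumor 1, 2, 3 or 4 or vector tumor 3, 4 or 5. With vector tumors 3 and 5 left out the target median was -1.20, and that of the 9 signaling genes -0.26. This list was made with earlier results of these data known, so its direction is no separate evidence.

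Markers of other cells are given beside these values. Of 12 myeloid markers 11 had a negative log2 fold change, the median was -0.73, and their summed TPM ran from 599 to 2476 in Adamts7 tumors and from 1120 to 7042 in vector tumors, with none at 0. Ptprc, the pan-leukocyte marker CD45, was at 23.4 TPM in Adamts7 tumor 1 and at 6.11 to 11.1 TPM in the other Adamts7 tumors, against 14.7 to 103 TPM in vector tumors. The log2 fold changes of all 11 melanocyte markers were positive, with a median of 2.19, but without vector tumors 3 and 5 the median was 0.36 and 5 of 11 were negative. Their summed TPM ran from 12924 to 23901 in Adamts7 tumors and from 313 to 17285 in vector tumors. Of these markers Gpr143 was at 0 TPM in at least 1 vector tumor. Fibroblast markers, 9 in all, had a median of -0.21 and 8 endothelial markers one of -0.28. The 13 stress and RNA quality genes, mitochondrial transcripts among them, had a median of 0.37 with 11 positive. In 2 of these 13, the mitochondrial mt-Co1 and mt-Nd1, every Adamts7 tumor lay above every vector tumor, and 0 separated in the lower direction. The share of all tested genes that separate as higher was not counted. No gene of these lists passed over all genes (limma), and 3 myeloid, 1 melanocyte, 0 fibroblast, 3 endothelial and 4 stress genes had an unadjusted p under 0.05, where 20.2% of all tested genes did. The 3 myeloid genes at that level were Lyz2, Tyrobp and Ptprc, and Ptprc marks all leukocytes. As lower, 3 myeloid markers pass in the authors' deposited table, and as higher, 4 stress genes, where 7.96% of all genes with an adjusted p pass in either direction. The part of these cells in the levels of the 9 genes was not tested. With vector tumors 3 and 5 left out, the median was 0.04 for the myeloid markers, -0.65 for the T cell markers, all 14 negative, and -0.77 for the natural killer markers, all 5 tested negative. In that fit 8 of the 9 signaling genes had a negative log2 fold change, as did 64.3% of all tested genes, and Ifngr1 at -0.02 and Ifngr2 at -0.06 lay above the median of -0.10 of all tested genes. Of the 9, 3 had an unadjusted limma p under 0.05, where 9.81% of all tested genes were lower at that level, and 0 passed, where 0.222% did.

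The genes whose pattern over the 10 tumors was most like each of the 9 were found by the root mean square difference of z-scores, where 0 is an identical pattern. Closest to Ifng were Adamts5, Ager and Moxd1, at 0.13, 0.14 and 0.17, and Adamts5 had 45.2 and 34.9 TPM in vector tumors 3 and 5 against at most 10.0 TPM elsewhere. Closest to Socs1 were H2-T23, a nonclassical MHC class I gene, Il18bp, a decoy for interleukin-18, and Trim21, at 0.13, 0.14 and 0.15. Stat2 was most like Scimp, Ifit1 and Stx4a (0.16 each), and Ifit1 is itself a type I interferon target. Socs3 was most like Tgfbi, Syk and Slc16a10 (0.17, 0.17 and 0.18), Ifngr1 like Arf2, Ifi209 and Itm2b (0.13, 0.14 and 0.16), and Ifngr2 like Irf3, Snx20 and Mcub (0.25, 0.25 and 0.26). Jak2 was most like Ccdc126, Ubash3a and Gpr141 (0.19, 0.21 and 0.23).

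Ptpn2 was most like Pfdn1, Pdcd10 and Cnn3 (0.20, 0.21 and 0.21), and each of these, like Ptpn2, was higher in the tumor labelled Adamts7 5 than in any other Adamts7 tumor, Pdcd10 with 79.3 TPM against 33.9 to 43.4 TPM. No gene came nearer to Jak1 than Pcnt at 0.45, followed by Gucd1 and Zfp451 at 0.46 and 0.49. Among the 9 themselves the closest pair was Stat2 and Socs1 at 0.22, and the farthest were Jak1 and Ptpn2 at 1.23. Jak1 was far from each of the other 8, at 0.96 to 1.23. These distances say nothing of shared control.

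Harvest day and group cannot be told apart for the tumors of day 35 and day 50. Over the 100 possible choices of 3 Adamts7 and 3 vector tumors for day 45, Ifng, Jak2, Stat2, Socs1 and Ptpn2 had a lower mean in the Adamts7 tumors in all 100. For Ifng and Socs1 this count was fixed in advance, since no Adamts7 tumor exceeded any vector tumor. It adds nothing there to the group difference. Their log2 differences ran from -3.50 to -0.87 for Ifng, from -2.84 to -0.54 for Socs1, from -1.71 to -0.055 for Stat2, from -0.74 to -0.20 for Jak2 and from -0.70 to -0.27 for Ptpn2. Ifngr1, Ifngr2 and Socs3 were lower in 95, 98 and 99 of the 100, and Jak1 in 41.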

How the data were processed

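Bulk RNA of 10 tumors was compared between 5 Adamts7 and 5 vector tumors, grouped by title. Per the labels' protocols, poly(A) RNA with spike-ins was sequenced in paired reads of 150 bases and demultiplexed with bcl2fastq 2.17. The authors deposited log2(TPM + 1) values per gene symbol; the submitters' processing notes name RSEM and mm39, and no annotation is named. Raised back to TPM, the values sum to 995286 to 998019 per tumor; no depth, and so no counting interval, can be had. The comparison table deposited by the authors holds log2 fold changes, standard errors, p-values, a score and a normalized signal per gene, from DESeq2 per the submitters' processing notes; its identifiers were paired with symbols for 28805 of 30040. The deposited repertoire table by the authors holds other measures, of which clonotype numbers were used; they are not scaled to depth.

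Genes averaging 1 TPM or more were fitted on log2(TPM + 1) by limma 3.58.1 (R 4.3.3) with a trended variance and no covariate, and p-values were adjusted by Benjamini-Hochberg at 0.05; the fit was tested on simulated data. Within-tumor differences were tested by exact permutation in Python 3.11.15. The named genes are the 9 signaling genes, up to 3 genes of each further list with the smallest limma p, and the 3 genes most like each of the 9. No values are given for the genes this rule takes from the fibroblast, endothelial and stress lists, and 1 gene of the JAK and STAT list is not reported here. The members and lists were chosen with earlier results of these data known. Other pseudocounts, filters, scalings, variance models, tumor weights, a replicate block and left-out tumors were tried. Promoters came from RefSeq sequences of an older build than mm39 and were matched by symbol only.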

Additional observations from a re-analysis of the deposited data

Results flagged for a closer look

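In a group of 5 tumors, the largest gap between the highest or lowest tumor and its neighbour was set against the group's range, with a limit of 0.71. Of 142 such sets 9 passed, all in Adamts7 tumors, and chance flags about 1 in 20. The count is near that rate, so it is no result about these tumors. Vector tumors 3 and 5 were often both high, and a gap to the nearest tumor can miss 2 tumors that stand apart together. That only Adamts7 tumors were flagged therefore says nothing of the groups. The tumor labelled Adamts7 5 had 45.0 TPM of Ptpn2 with the next tumor at 32.8 TPM. It also had 71.3, 79.3 and 448 TPM of Pfdn1, Pdcd10 and Cnn3, with the next tumors at 46.7, 43.4 and 330 TPM. These 3 genes were picked for a pattern like that of Ptpn2, so their gaps follow from that choice and add nothing to it. That tumor had 108 TPM of Stat6 with the next tumor at 152 TPM, and 18.2 TPM of Adamts7 with the next at 74.8 TPM. Adamts7 tumor 1 had 26.9 TPM of Jak2 with the next tumor at 22.7 TPM, and 23.4 TPM of Ptprc with the next at 11.1 TPM. Adamts7 tumor 2 had 85.4 TPM of Ifnar2 with the next tumor at 67.5 TPM. The cause of these gaps was not tested.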

How the results depend on the processing

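Of 180 log2 fold changes of the 9 genes over 20 alternative fits, 171 kept their direction and their side of the threshold, 3 newly passed, all of Ptpn2, and 6 changed sign. Without vector tumors 3 and 5 and the tumor labelled Adamts7 5, the log2 fold changes of Ifngr1, Ifngr2 and Socs3 turned to 0.053, 0.0033 and 0.0034. Jak1 ran from -0.020 to 0.081 with each tumor left out in turn. Ifnlr1 turned to -0.013 with tumor weights and to -0.067 without these 3 tumors, and Ifngr2 minus Ifngr1 to -0.035 without vector tumors 3 and 5. Socs1 minus Socs3 ran from -1.28 to -0.87 with each tumor left out.

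The fit with all tumors called 34 genes and 0 of the 9. It called 10 with no filter, 1219 with tumor weights, 914 without vector tumors 3 and 5 and the tumor labelled Adamts7 5, and 6 to 657 with each tumor left out. Of the 9, Ptpn2 alone was called in these, which is 1 with tumor weights, 1 without the 3 tumors, and 0 to 1 with each tumor left out. Median-of-ratios scaling and quantile normalization gave all genes a median of -0.0063 and 0.04, beside -0.10 as deposited; the directions of the 9 were kept, so that Jak1, 0.02 as deposited, was 0.12 and 0.08. The replicate block, with the tumor number as a term, called 0 genes and 0 of the 9. The numbers do not pair tumors: deviations of same-numbered tumors correlated from -0.28 to 0.26, and 2 of 10 tumors correlated best with their own number. The cause of these shifts was not tested. The unknown depth limits what can be said of Ifng in the Adamts7 tumors, all below 1.5 TPM.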
